A study of Homo sapiens with 40 samples.

Results

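The genes described here are 10 that mark or control the passage of epithelial cells toward a mesenchymal state, taken by name from the 44584 gene names of an RNA-seq count table of the breast cancer lines BT474 and BT474R. They are the cadherin genes CDH1, CDH3, CDH2 and CDH5, the mesenchymal structural genes VIM and FN1, and the repressor genes SNAI1, SNAI2, ZEB1 and ZEB2. Each name was found in the table, and 9 of the 10 genes had enough counts to be tested. The exception was ZEB2, which had 1 read in 1 library and none in the other 39.

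Cadherins are adhesion proteins that bind a cadherin of the neighbouring cell and hold the actin cytoskeleton through catenins. E-cadherin (CDH1) and P-cadherin (CDH3) belong to epithelia, N-cadherin (CDH2) to nerve, muscle and many mesenchymal cells, and VE-cadherin (CDH5) to endothelium. In an epithelial to mesenchymal transition the SNAI and ZEB proteins repress CDH1, while CDH2, the intermediate filament protein vimentin (VIM) and the matrix protein fibronectin (FN1) rise, so that luminal breast cells normally carry much CDH1 and little of the others.

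BT474 is an established line of a ductal breast carcinoma with amplified ERBB2 (HER2), and BT474R is 1 clone of it that was raised under trastuzumab, so every difference between the lines is one between a line and a single clone. Both lines were serum starved and then collected at once (T0) or after 1, 12 or 24 h in fresh starvation medium with EGF, the ligand of EGFR, with heregulin (HRG), the ligand of ERBB3 and ERBB4, or with water as vehicle. Each of the 20 groups had 2 libraries, 40 in all. The EGF and HRG groups of one time and line share the same vehicle libraries. The libraries of a group are told apart by a number alone, so the p-values measure the spread between these libraries, part of which may be technical. In such bulk samples fewer cells that express a gene and less RNA of it in each cell cannot be told apart.

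Counts per library ran from 19200632 to 29098915 in BT474 and from 16794594 to 33387936 in BT474R. Levels are given as CPM, the read count of a gene scaled to a common library total after TMM, a scale on which 3 counts are worth 0.0934 to 0.174 CPM. A group with 3 counts or fewer in each of its libraries is called at the limit, and no fold change is given for it. The 10 luminal HER2-positive marker genes each averaged at least 1 CPM in both lines, and so did none of 10 leukocyte genes, 1 of 9 fibroblast genes (COL1A1), and 4 (BT474) and 3 (BT474R) of 13 endothelial genes. Replicates of BT474R treated with HRG for 24 h were the least alike, with a median chi-square over genes of 2.56 where counting noise alone gives 0.455, and the lowest such value was 0.595.

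Calls over the members were counted beside the share of all genes called. In the tests of edgeR (quasi-likelihood, with Benjamini-Hochberg adjusted p below 0.05), EGF changed 0, 1 and 3 of the 9 tested members in BT474 at 1, 12 and 24 h, where it changed 2.19%, 16% and 16.4% of all genes tested. With HRG in BT474 the calls were 1, 5 and 3, beside 2.77%, 25.8% and 24.1% of all genes. In BT474R, EGF gave 0, 3 and 2 calls beside 0.457%, 12% and 17.3%, and HRG gave 0, 1 and 1 beside 0.169%, 4.12% and 2.78%. The genes that moved most often were CDH2, CDH5 and VIM, and they did so in different directions.

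**Figure D1:**
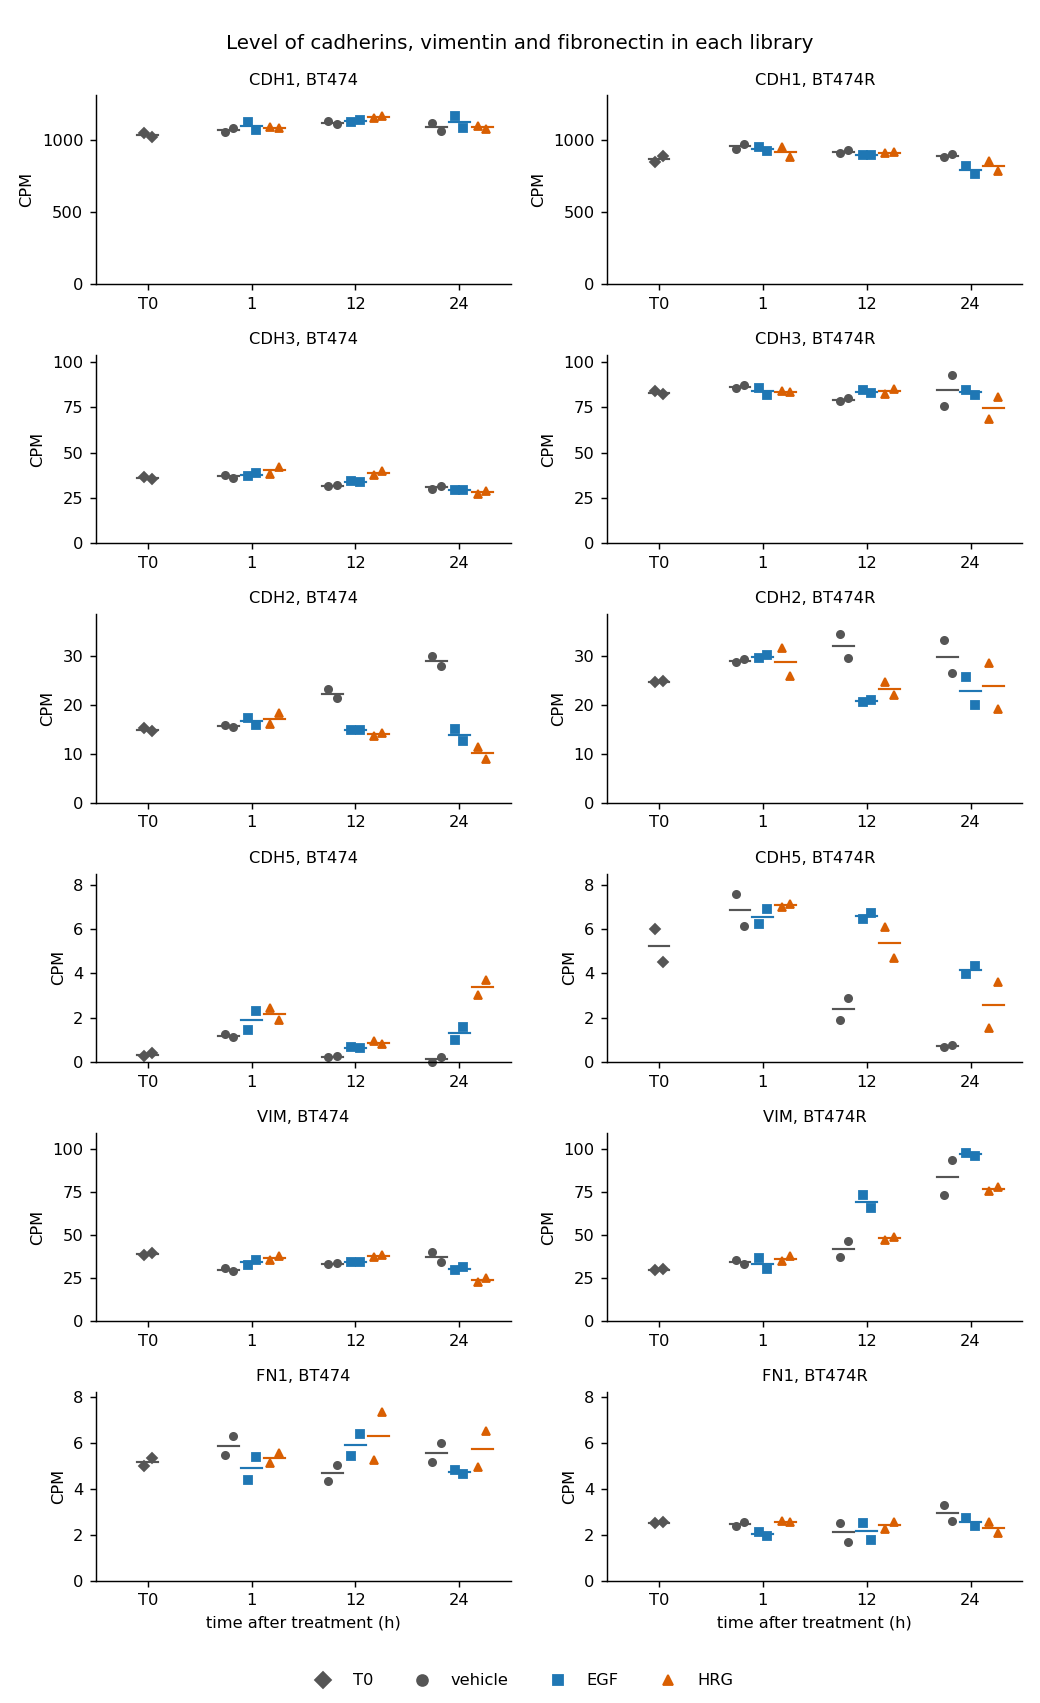
Level of CDH1, CDH3, CDH2, CDH5, VIM and FN1 in each library (points, 2 per group) in CPM by hours after treatment, with 1 panel for each gene and line and short lines at group means. CDH1 stays between 764 and 1171 CPM throughout, whereas CDH2 lies below vehicle and CDH5 above it in each ligand library of BT474 at 12 and 24 h.

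Per kilobase of exon (GENCODE 44), the median level over 20 libraries ordered the genes in BT474 as CDH1 (181 CPM per kb), VIM (6.68), CDH3 (5.45), CDH2 (1.78), SNAI1 (0.348), FN1 (0.309), CDH5 (0.162), SNAI2 (0.0384), ZEB1 (0.0201) and ZEB2 (0). In BT474R the order was CDH1 (148 CPM per kb), CDH3 (13), VIM (9.06), CDH2 (3.06), CDH5 (0.887), SNAI1 (0.743), FN1 (0.146), SNAI2 (0.125), ZEB1 (0.0105) and ZEB2 (0). CDH1 stood apart in both lines, since its lowest library, at 764 CPM, was above the highest library of any other member, VIM at 97.6 CPM.

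The start regions of CDH2 and VIM, the 2 mesenchymal genes with ligand calls in both lines, are printed here so that their sequence can be set beside their responses. Each run is the 250 bases before a RefSeq start on GRCh38.p14, read 5′ to 3′ on the strand of the gene. Capitals mark a GC box (GGGCGG or CCGCCC) or the AP-1-like pattern TGANTCA, a loose pattern whose middle base N may be any base. The first CDH2 region is chr18:28177131-28177380 (minus strand), the second is chr18:28036642-28036891 (minus strand), and that of VIM is chr10:17227991-17228240 (plus strand).
CDH2 start 1: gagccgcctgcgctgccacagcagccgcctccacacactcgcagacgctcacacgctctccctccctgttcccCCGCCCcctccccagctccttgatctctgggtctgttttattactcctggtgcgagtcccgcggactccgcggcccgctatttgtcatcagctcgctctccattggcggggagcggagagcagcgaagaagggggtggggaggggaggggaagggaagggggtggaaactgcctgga
CDH2 start 2: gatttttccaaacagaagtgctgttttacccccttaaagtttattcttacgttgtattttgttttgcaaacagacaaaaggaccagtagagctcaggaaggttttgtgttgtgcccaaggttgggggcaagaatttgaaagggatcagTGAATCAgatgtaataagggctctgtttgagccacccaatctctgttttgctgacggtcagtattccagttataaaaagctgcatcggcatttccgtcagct
VIM start: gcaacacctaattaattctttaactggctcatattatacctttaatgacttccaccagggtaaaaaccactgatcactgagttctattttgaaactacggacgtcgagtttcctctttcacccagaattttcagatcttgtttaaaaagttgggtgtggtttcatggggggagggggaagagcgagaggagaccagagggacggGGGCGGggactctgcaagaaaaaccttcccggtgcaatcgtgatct

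The first CDH2 region had 66% G and C and 1 GC box, and the VIM region 46.0% and 1 GC box, a motif found on either strand in 42.6% of the 35116 RefSeq start regions of this length. The second CDH2 region had 42.0% G and C, no GC box and 1 match to the AP-1-like pattern, which is found in 6.57% of all such regions. The middle base of this match is A, so it is not taken as an AP-1 site. None of these 3 held the E-box CACCTG (or CAGGTG) bound by SNAI and ZEB proteins, which occurs in 17.5% of all regions. Of the 10 genes, 5 had a region in the table (CDH2, VIM, FN1, ZEB1 and ZEB2), with 12 regions in all. Of these 8 held a GC box, 1 the AP-1-like pattern and 2, both of ZEB1, the E-box. A match of letters is a description of the sequence only.

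CDH1, the main adherens junction cadherin of luminal cells, was the most even of the members. Over the 20 BT474 libraries its lowest, median and highest levels were 1022, 1097 and 1171 CPM. In BT474R they were 764, 898 and 976 CPM, so that each BT474R library lay below each BT474 library. The 6 ligand comparisons in BT474 gave log2 fold changes between -0.02 and 0.04 with an SE near 0.03, and none was called (adjusted p 0.448 to 0.951, edgeR). In BT474R the libraries at 24 h were at 822 and 764 CPM with EGF and at 881 and 901 CPM with vehicle, without overlap. This was the single called ligand response of CDH1, a log2 fold change of -0.17 (SE 0.04, adjusted p 0.00854, edgeR). It was lost without vehicle replicate 1 (-0.17, adjusted p 0.0536), without EGF replicate 2 (-0.13, adjusted p 0.129) and in a fit of these 4 libraries alone (adjusted p 0.0857). HRG at 24 h gave -0.12 (SE 0.04, adjusted p 0.194) in BT474R.

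CDH3, a cadherin of basal and myoepithelial breast cells as well as of some carcinomas, was the second epithelial member. Its lowest, median and highest levels were 27.4, 34.8 and 42.1 CPM in BT474 and 68.5, 83.0 and 92.7 CPM in BT474R, 2 ranges that lay apart. After 12 h of HRG the BT474 libraries were at 37.4 and 39.9 CPM, above vehicle at 31.4 and 31.9 CPM, which is a log2 fold change of 0.28 (SE 0.06, adjusted p 0.000656, edgeR). The 5 other ligand comparisons of CDH3 in BT474 and the 6 in BT474R were not called. With vehicle, BT474 libraries at 24 h (29.8 and 31.7 CPM) were below T0 (36.6 and 35.5 CPM), with a log2 fold change of -0.24 (SE 0.07, adjusted p 0.0102). That call was lost without T0 replicate 1 (-0.21, adjusted p 0.142) or vehicle replicate 1 (-0.19, adjusted p 0.147). The basal genes beside CDH3 moved with it after 12 h of HRG in BT474, where 4 of 7 tested rose and 0 fell, with a median log2 fold change of 1.15 beside -0.02 over all genes, of which 25.8% were called. TP63, a factor of basal cells, rose there by 1.15 (adjusted p 1.05e-07) and with EGF by 1.18 (adjusted p 2.25e-07), while CDH3 was not called with EGF. After 12 h of EGF in BT474, 3 of the 7 basal genes rose and 1 fell, beside 16% of all genes called. MYLK, another basal gene, fell in 3 of the 12 ligand comparisons and rose in 0. The summed level of 8 basal genes was 12.3 to 31.1 CPM in BT474 and 4.52 to 11.4 CPM in BT474R, and its part in the CDH3 level was not tested.

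CDH2, the cadherin whose gain marks the mesenchymal side, rose in starved BT474 cells with vehicle and stayed lower with both ligands. The T0 libraries of BT474 were at 15.2 and 14.7 CPM. With vehicle they were at 16.0 and 15.4 CPM at 1 h, 23.2 and 21.5 CPM at 12 h, and 30.0 and 28.0 CPM at 24 h. Thus CDH2 rose with time in starvation medium alone, by a log2 fold change against T0 of 0.57 (SE 0.09, adjusted p 3.25e-05, edgeR) at 12 h and 0.94 (SE 0.09, adjusted p 6.56e-10) at 24 h. With EGF the libraries were at 17.3 and 16.0 CPM at 1 h, 15.0 and 14.9 CPM at 12 h, and 15.2 and 12.7 CPM at 24 h. With HRG they were at 16.0 and 18.3 CPM, 13.7 and 14.3 CPM, and 11.5 and 8.98 CPM. At 12 and 24 h each ligand library was below each vehicle library, and at 1 h neither ligand was called.

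Against vehicle, the CDH2 log2 fold change in BT474 with EGF was -0.60 (SE 0.09, adjusted p 8.47e-06, edgeR) at 12 h and -1.05 (SE 0.09, adjusted p 2.41e-11) at 24 h. Under HRG it was -0.69 (SE 0.09, adjusted p 1.69e-07) at 12 h and -1.51 (SE 0.09, adjusted p 1.74e-15) at 24 h. These 4 calls held without any single library and in each other fit.

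In BT474R, CDH2 began higher at T0. The T0 libraries were at 24.7 and 24.9 CPM, and vehicle at 28.8 and 29.4 CPM at 1 h, 34.5 and 29.7 CPM at 12 h, and 33.2 and 26.6 CPM at 24 h. No time with vehicle was called against T0 (log2 fold changes 0.20, 0.34 and 0.29, adjusted p 0.602, 0.419 and 0.221). EGF libraries were at 20.7 and 21.1 CPM at 12 h, below both vehicle libraries, with a log2 fold change of -0.62 (SE 0.14, adjusted p 0.00509, edgeR). The call was lost without vehicle replicate 1 (-0.50, adjusted p 0.0997) or EGF replicate 1 (-0.62, adjusted p 0.0576). At 24 h EGF libraries were at 25.8 and 19.99 CPM (-0.40, adjusted p 0.0571). HRG libraries were at 24.6 and 22.1 CPM at 12 h (-0.47, adjusted p 0.0662) and at 28.6 and 19.2 CPM at 24 h (-0.33, adjusted p 0.286), and at 24 h they overlapped with vehicle.

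**Figure D2:**
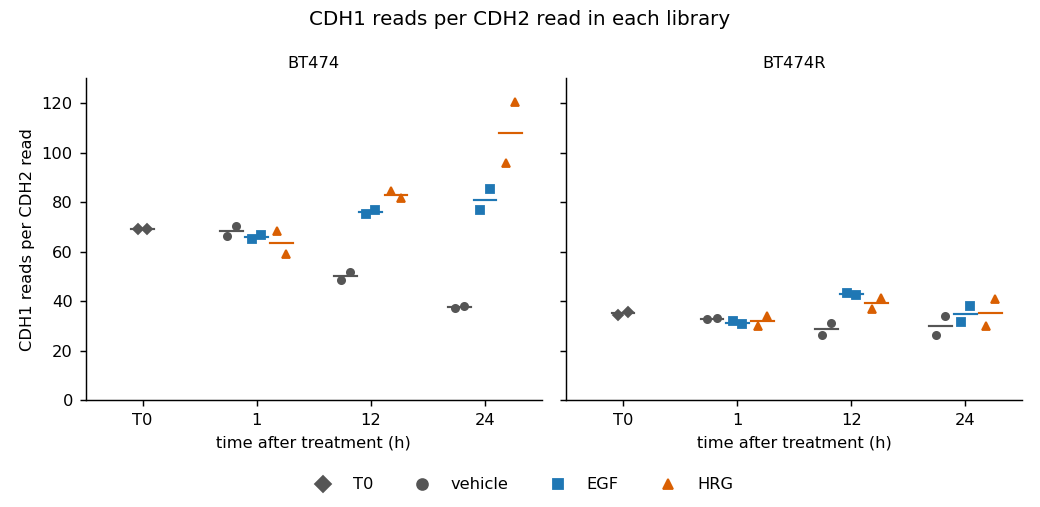
Reads of CDH1 per read of CDH2 in each library (points) and group mean (lines) by hours after treatment, in BT474 and BT474R. In BT474 vehicle falls to 37.4 and 38.1 at 24 h, while HRG reaches 95.9 and 120.3, and BT474R stays between 26.4 and 43.2.

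The number of CDH1 reads per CDH2 read needs no scaling between libraries. In BT474 it was 69.1 and 69.3 at T0 and 37.4 and 38.1 after 24 h of vehicle. After 24 h it was 76.8 and 85.2 with EGF and 95.9 and 120.3 with HRG, with no overlap with vehicle. In BT474R it was 34.4 and 35.7 at T0, 26.4 and 31.3 after 12 h of vehicle and 43.2 and 42.5 after 12 h of EGF. No test was made of this ratio, whose change in BT474 followed CDH2, since CDH1 stayed within 1022 to 1171 CPM.

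CDH5, the adhesion gene of endothelium, was the member with the widest swings, at low levels. In BT474 its read counts were 7 and 8 at T0, 27 and 27 after 1 h of vehicle, 6 and 7 after 12 h, and 0 and 6 after 24 h. With EGF they were 41 and 65 at 1 h, 15 and 13 at 12 h, and 27 and 34 at 24 h. With HRG they were 53 and 39 at 1 h, 22 and 23 at 12 h, and 89 and 90 at 24 h. From 12 h on both ligands lay above vehicle in each library, and the widest gap was that of HRG at 24 h, 3.04 and 3.71 CPM against 0 and 0.231 CPM.

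The log2 fold change of CDH5 in BT474 was 4.65 (SE 0.42, adjusted p 3.31e-11, edgeR) with HRG and 3.26 (SE 0.52, adjusted p 1.07e-05) with EGF at 24 h. As 1 vehicle library held no read, the size rests on the other: without vehicle replicate 1 the values were 3.82 for HRG and 2.42 for EGF, and without vehicle replicate 2 they were 9.35 and 7.95, fitted values that are no measure of size because vehicle was then left with 0 reads. At 12 h HRG gave 1.80 (SE 0.47, adjusted p 0.00307), which was lost without vehicle replicate 1 (1.58, adjusted p 0.0599), and EGF gave 1.38 (SE 0.52, adjusted p 0.0638). Vehicle at 1 h was above T0 by 1.86 (SE 0.44, adjusted p 0.00449), a call lost without T0 replicate 1 (1.58, adjusted p 0.123).

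In BT474R, CDH5 stood at 5.99 and 4.52 CPM at T0 and fell with time in vehicle, from 7.59 and 6.13 CPM at 1 h to 1.91 and 2.88 CPM at 12 h and 0.672 and 0.748 CPM at 24 h. Against T0 the log2 fold change was -1.12 (SE 0.26, adjusted p 0.0327, edgeR) at 12 h, lost without any one of the 4 libraries, and -2.86 (SE 0.33, adjusted p 8.53e-06) at 24 h. EGF libraries kept 6.43 and 6.70 CPM at 12 h and 3.96 and 4.32 CPM at 24 h, and HRG libraries 6.08 and 4.69 CPM and 1.53 and 3.62 CPM. Each of these libraries lay above vehicle of its time. The log2 fold change with EGF was 1.42 (SE 0.25, adjusted p 0.000355) at 12 h and 2.54 (SE 0.34, adjusted p 9.38e-06) at 24 h, and both held without any single library. With HRG it was 1.13 (SE 0.25, adjusted p 0.00875) at 12 h and 1.86 (SE 0.37, adjusted p 0.00736) at 24 h.

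Both HRG calls of CDH5 in BT474R rested on few libraries. That at 12 h was lost without vehicle replicate 1 (0.91, adjusted p 0.140) or HRG replicate 1 (0.93, adjusted p 0.129). That at 24 h was lost without vehicle replicate 1 (1.78, adjusted p 0.126) or HRG replicate 2 (1.1, adjusted p 0.134). In a fit of the compared libraries alone the adjusted p was 0.0781 at 12 h and 0.828 at 24 h.

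Other endothelial genes were called in some comparisons where CDH5 was called and not in others. Of 13 such genes, ROBO4 had no read in any library, and PECAM1 and KDR had at most 5 and 22 reads. Their summed level was led by VWF (mean 18.0 CPM in BT474, 11.4 CPM in BT474R) and EGFL7 (3.64 and 16.2 CPM), and it ranged from 20.3 to 30.9 CPM in BT474 and from 25.3 to 38.6 CPM in BT474R. At 24 h in BT474 the sum was 24.3 and 27.0 CPM with vehicle and 24.0 and 25.3 CPM with HRG, while CDH5 went from 0 and 0.231 CPM to 3.04 and 3.71 CPM. Of the 9 endothelial genes tested, 0 were called there, beside 24.1% of all genes. In BT474 1 rose with HRG at 12 h, beside 25.8% of all genes called, and 1 with EGF at 24 h, beside 16.4%. In BT474R 1 rose with each ligand at 12 h, beside 12% (EGF) and 4.12% (HRG) of all genes called. At 24 h 3 rose with EGF, beside 17.3% of all genes called, and 0 were called with HRG, beside 2.78%. No endothelial gene of the list fell with a ligand in either line, and their part in the CDH5 level was not tested.

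VIM, the intermediate filament of mesenchymal cells, fell with the ligands in BT474 at 24 h and rose with EGF in BT474R at 12 h. In BT474 the vehicle libraries were at 31.0 and 29.0 CPM at 1 h, 33.2 and 33.7 CPM at 12 h, and 40.2 and 34.7 CPM at 24 h, after 38.7 and 39.9 CPM at T0. With HRG the libraries were at 35.4 and 37.9 CPM, 37.5 and 38.7 CPM, and 22.8 and 24.8 CPM. With EGF they were at 32.9 and 35.3 CPM, 34.7 and 34.5 CPM, and 29.7 and 31.4 CPM. At 24 h each ligand library was below each vehicle library, and at 1 and 12 h each was above.

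The log2 fold change of VIM in BT474 at 24 h was -0.67 (SE 0.07, adjusted p 1.75e-09, edgeR) with HRG, which held without any single library. With EGF it was -0.29 (SE 0.07, adjusted p 0.00222), lost without vehicle replicate 1 (-0.19, adjusted p 0.116). At 1 h HRG gave 0.28 (SE 0.07, adjusted p 0.0207), lost without vehicle replicate 2 (0.23, adjusted p 0.284), without HRG replicate 2 (0.25, adjusted p 0.193) and with both lines in 1 fit (adjusted p 0.156). Vehicle lay below T0 at 1 h by a log2 fold change of -0.38 (SE 0.07, adjusted p 0.000272) and at 12 h by -0.24 (SE 0.07, adjusted p 0.0262), the latter lost without any one of the 4 libraries.

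In BT474R, VIM climbed in starvation medium. The libraries were at 29.7 and 30.1 CPM at T0, 35.7 and 33.1 CPM after 1 h of vehicle, 37.3 and 46.5 CPM after 12 h and 73.5 and 93.8 CPM after 24 h. At 24 h this was a log2 fold change of 1.49 (SE 0.11, adjusted p 5.59e-08, edgeR) against T0, and at 12 h of 0.47 (SE 0.11, adjusted p 0.0376), the latter lost without vehicle replicate 2 (0.29, adjusted p 0.697), T0 replicate 1 (0.48, adjusted p 0.205) or T0 replicate 2 (0.47, adjusted p 0.319). EGF libraries were already at 73.2 and 65.4 CPM at 12 h, above both vehicle libraries, with a log2 fold change of 0.71 (SE 0.10, adjusted p 4.31e-05) that held without any single library. At 24 h they were at 97.6 and 95.9 CPM (0.21, adjusted p 0.169). HRG libraries were at 47.2 and 49.0 CPM at 12 h (0.18, adjusted p 0.422) and at 75.6 and 78.0 CPM at 24 h (-0.12, adjusted p 0.667), where they overlapped with vehicle.

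Fibroblast and leukocyte genes, which mark other cells rich in vimentin, were near 0 in these libraries with 1 exception. COL1A1 averaged 89.6 CPM in BT474 and 212 CPM in BT474R, whereas PDGFRA had at most 4 reads and COL3A1 at most 19 reads in any library. The leukocyte gene PTPRC had at most 2 reads. The summed level of 9 fibroblast genes was 75.0 to 106 CPM in BT474 and 171 to 288 CPM in BT474R. Only 4 of these 9 genes had enough counts for a test in BT474R, and either ligand gave 0 calls among them at 12 or 24 h. The share of all genes called there ranged from 2.78% (HRG, 24 h) to 17.3% (EGF, 24 h). With so few genes tested, 0 calls does not show that fibroblast genes stayed unchanged. COL1A1 moved in the direction of VIM in some comparisons and not in others. In BT474 it fell at 24 h of HRG by 0.28 on the log2 scale (adjusted p 0.000833, edgeR), where VIM fell. It also fell at 12 h of HRG by 0.35 (adjusted p 3.49e-05) and at 12 h of EGF. At 12 h VIM was not called with either ligand, and each of its ligand libraries lay above vehicle. With vehicle at 24 h in BT474R COL1A1 rose against T0 by 0.51 (adjusted p 9.79e-06), as VIM did. The part of COL1A1-expressing cells in the VIM levels was not tested.

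FN1, the fibronectin of mesenchymal matrix, was low and nearly flat. Its lowest, median and highest levels were 4.34, 5.31 and 7.34 CPM in BT474 and 1.68, 2.52 and 3.29 CPM in BT474R, and these ranges did not overlap. After 12 h of HRG the BT474 libraries were at 5.27 and 7.34 CPM and those of vehicle at 4.34 and 5.07 CPM, a log2 fold change of 0.43 (SE 0.15, adjusted p 0.0344, edgeR). This was the single ligand call of FN1. It was lost without vehicle replicate 1 (0.32, adjusted p 0.297), without HRG replicate 2 (0.17, adjusted p 0.635) and in DESeq2 (adjusted p 0.0979).

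The 4 repressors of CDH1 had few reads, and 3 of them, SNAI2, ZEB1 and ZEB2, were at the limit in some groups. SNAI1, a zinc finger repressor that acts early in the transition, had 9 to 27 reads per library in BT474 (0.413 to 1.01 CPM) and 13 to 65 reads in BT474R (0.601 to 2.56 CPM). It was highest in BT474R after 1 h of EGF, at 2.56 and 1.87 CPM against 1.77 and 1.49 CPM with vehicle, which was no call (log2 fold change 0.45, SE 0.25, adjusted p 0.930, edgeR). None of its 12 ligand comparisons was called, and their log2 fold changes ran with SEs of 0.25 to 0.44.

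SNAI2, its relative found in basal breast cells, had 0 to 15 reads per library in BT474 and 3 to 29 reads in BT474R, and was at the limit in 5 of 10 BT474 groups and 1 of 10 BT474R groups. The highest BT474 group was HRG at 1 h, with 12 and 11 reads against 5 and 5 with vehicle, and after 12 h of HRG there were 1 and 0 reads. No ligand comparison of SNAI2 was called. In BT474R the EGF libraries at 24 h had 3 and 3 reads against 13 and 8 with vehicle (adjusted p 0.0758).

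ZEB1, a zinc finger and homeobox repressor, had 2 to 12 reads per library in BT474 and 0 to 6 reads in BT474R, and was at the limit in 3 and 6 groups. Its 1 call with a ligand was in BT474 after 12 h of HRG, with 3 and 3 reads against 9 and 12 with vehicle (adjusted p 0.0449, edgeR). As the HRG group is at the limit no fold is given, and the call was lost without any one of the 4 libraries (adjusted p 0.0505 to 0.246). At 24 h the BT474 vehicle libraries had 11 and 7 reads, those of EGF 2 and 3, and those of HRG 3 and 4. ZEB2 was at the limit in each of the 20 groups, with its 1 read in a BT474R vehicle library at 24 h.

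**Figure D3:**
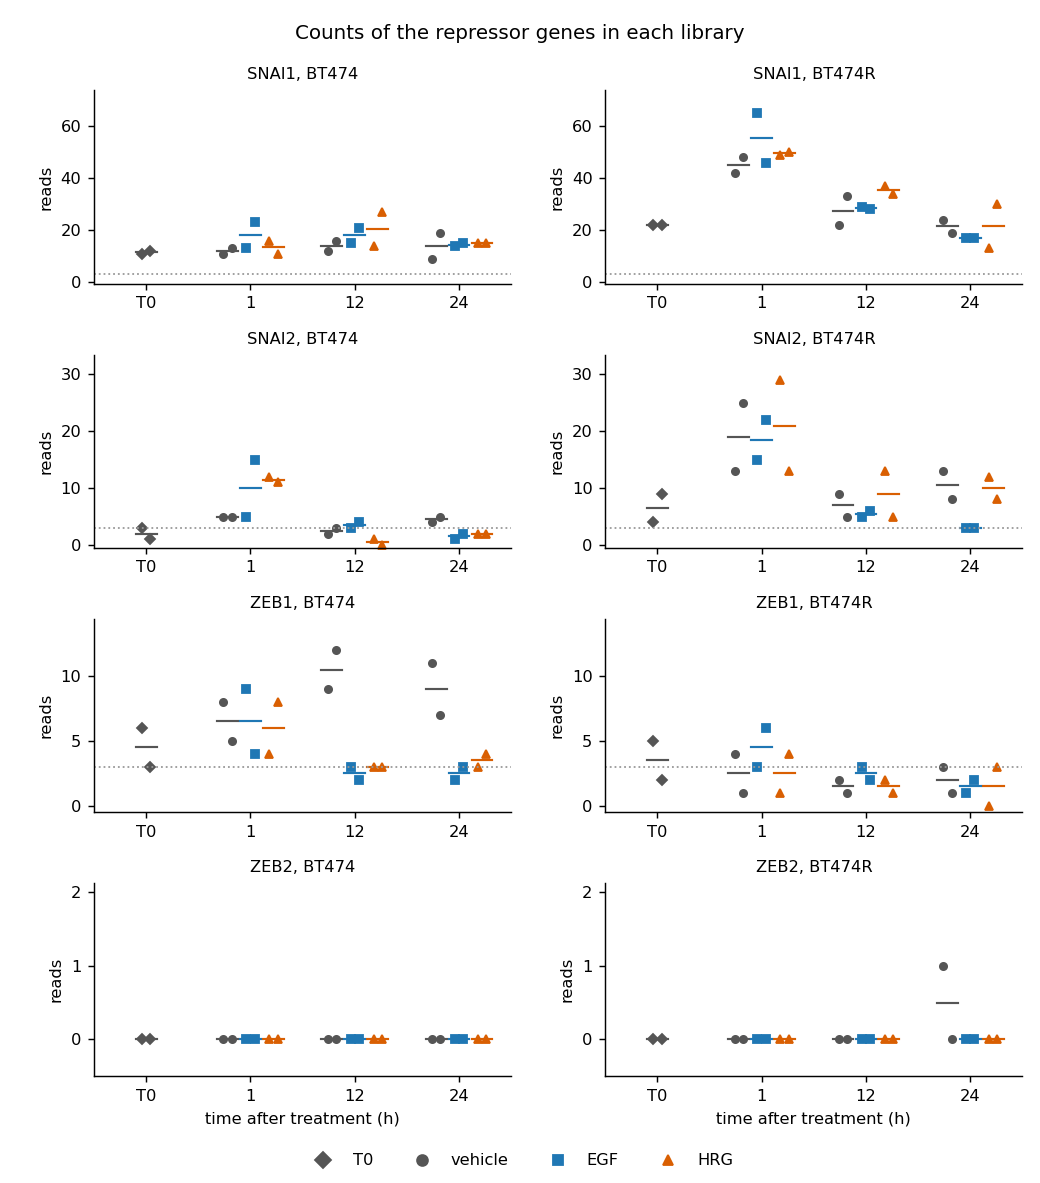
Read counts of SNAI1, SNAI2, ZEB1 and ZEB2 in each library (points) by group, with a line at the limit of 3 counts. ZEB2 is at 0 in 39 of 40 libraries, and ZEB1 never exceeds 12 reads.

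**Figure D4:**
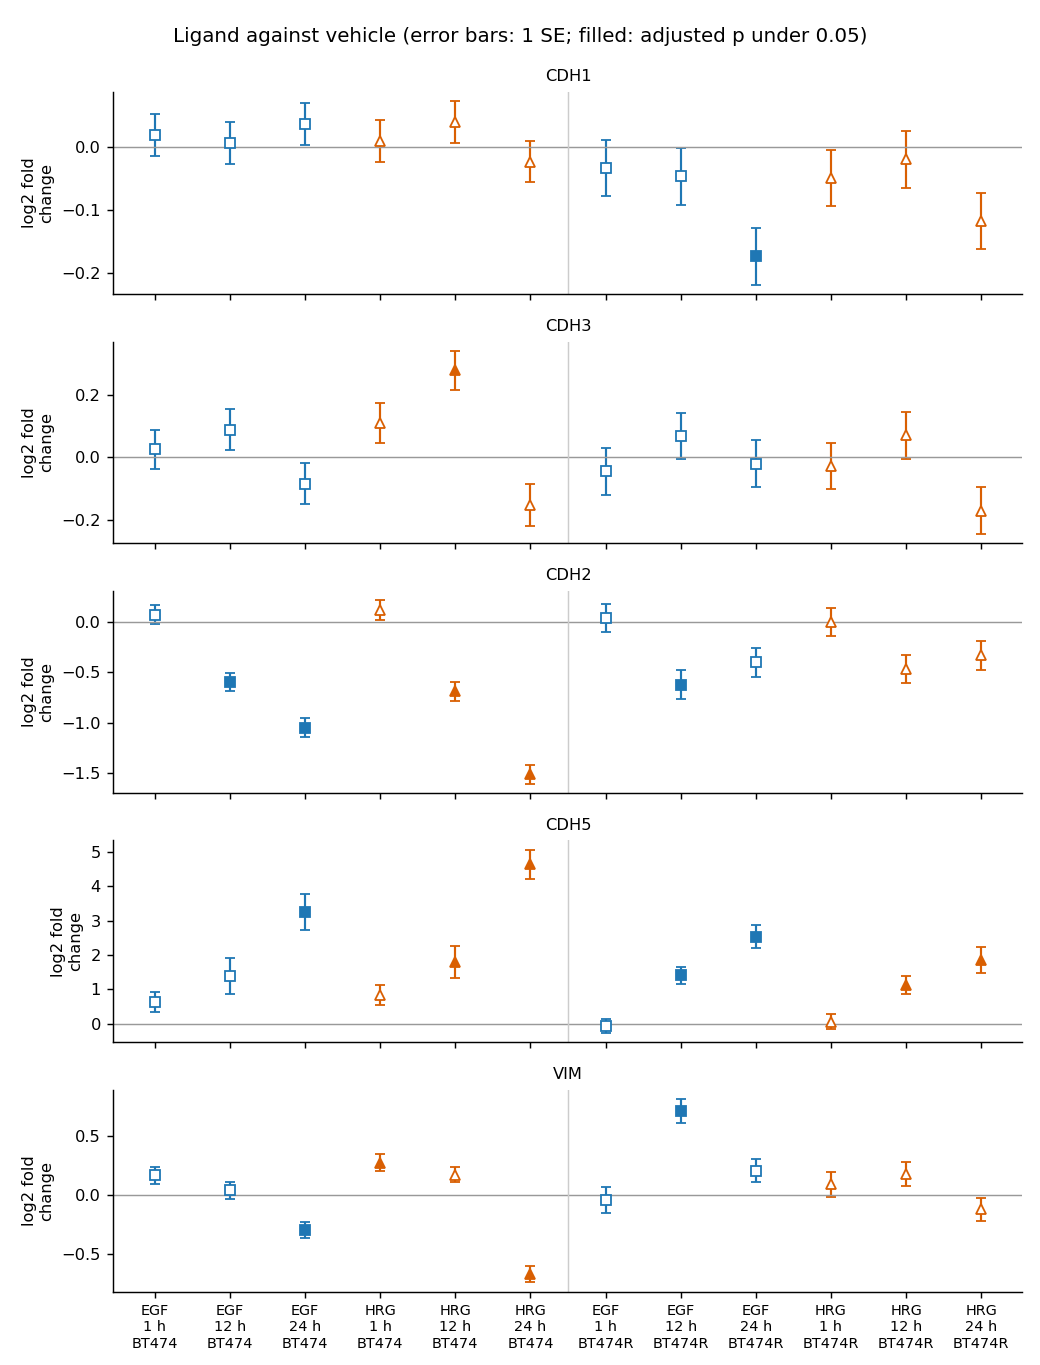
Log2 fold change of ligand against vehicle with its SE for CDH1, CDH3, CDH2, CDH5 and VIM by time, ligand and line, with filled points for edgeR adjusted p below 0.05. At 24 h CDH2 lies below vehicle in BT474 with EGF (-1.05) and HRG (-1.51), and CDH5 lies above vehicle with both ligands in both lines.

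The lines differed in most members. At T0 8 of 9 were called between BT474R and BT474, and with vehicle 7, 8 and 6 at 1, 12 and 24 h, where 46.9%, 50.2%, 49% and 49.3% of all genes tested were called. BT474R was higher at T0 in CDH3 (log2 difference 1.23, SE 0.07), CDH2 (0.75, SE 0.14), CDH5 (4.01, SE 0.38) and SNAI1 (1.21, SE 0.38), and lower in CDH1 (-0.22, SE 0.04), VIM (-0.36, SE 0.10) and FN1 (-1.0, SE 0.20), with adjusted p between 1.40e-17 and 0.00857 (edgeR). The SNAI1 call was lost without T0 replicate 1 of BT474 (0.94, adjusted p 0.120) or of BT474R (1.01, adjusted p 0.0843). SNAI2 was called at T0 on 4 and 9 reads against 3 and 1 (adjusted p 0.0404), a call lost without T0 replicate 1 or 2 of BT474 or replicate 2 of BT474R (adjusted p 0.0685 to 0.329).

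CDH1, CDH3, CDH5 and FN1 kept the sign of their T0 difference with vehicle at each time. With vehicle for 1, 12 and 24 h the log2 differences were -0.15, -0.29 and -0.25 for CDH1, 1.24, 1.32 and 1.49 for CDH3, 2.52, 3.31 and 2.47 for CDH5, and -1.24, -1.18 and -0.87 for FN1, each called (adjusted p at most 0.00303). That of CDH5 at 24 h was lost without BT474 vehicle replicate 1 (1.62, adjusted p 0.0580) and was 7.15 without replicate 2, when no BT474 read was left. The difference of CDH2 went from 0.90 (adjusted p 3.29e-07) to 0.51 (adjusted p 0.000673) and to 0.10 (adjusted p 0.548), as BT474 libraries rose to 30.0 and 28.0 CPM. That of VIM went from 0.20 (adjusted p 0.0736) to 0.33 (adjusted p 0.00258) and to 1.2 (adjusted p 2.84e-14), so that VIM was lower in BT474R at T0 and higher at 12 and 24 h. The VIM call at 12 h was lost without BT474R vehicle replicate 2 (0.14, adjusted p 0.326).

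SNAI1 was higher in BT474R with vehicle at 1 h (1.61, adjusted p 0.000113, edgeR) and at 12 h (1.02, adjusted p 0.0161), and was not called at 24 h (0.63, adjusted p 0.166). The call at 12 h was lost without BT474 vehicle replicate 1 (0.71, adjusted p 0.192) or BT474R vehicle replicate 2 (0.88, adjusted p 0.123). ZEB1 had 2 and 1 reads in BT474R against 9 and 12 in BT474 at 12 h (adjusted p 0.00522), and 3 and 1 against 11 and 7 at 24 h (adjusted p 0.0214). The first was lost without BT474R replicate 2 (adjusted p 0.0857), and the second without BT474 replicate 1 (adjusted p 0.174) or BT474R replicate 2 (adjusted p 0.130). SNAI2 with vehicle at 1 h had 13 and 25 reads against 5 and 5 (log2 difference 1.60, adjusted p 0.0104), lost without BT474 replicate 2 (1.51, adjusted p 0.0735) or BT474R replicate 2 (1.27, adjusted p 0.128).

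**Figure D5:**
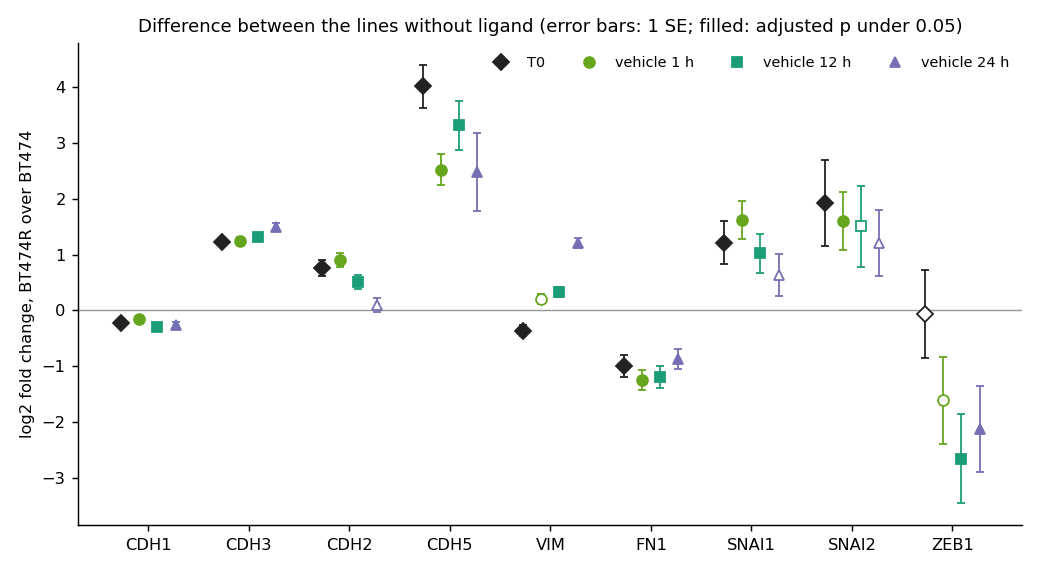
Log2 difference between BT474R and BT474 with its SE for each tested member at T0 and after 1, 12 and 24 h of vehicle, with filled points for edgeR adjusted p below 0.05. CDH3 and CDH5 lie above 0 and CDH1 and FN1 below 0 at each time, while VIM goes from -0.36 to 1.2.

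Whether a ligand acted differently in the 2 lines was tested as the difference of the ligand effects. Of the 9 members 0, 1 and 3 were called for EGF at 1, 12 and 24 h, beside 0.138%, 1.96% and 4.01% of all genes, and 0, 0 and 3 for HRG, beside 0.544%, 4.07% and 3.33%. For CDH2 the gap below vehicle at 24 h was smaller in BT474R by 1.14 with HRG (SE 0.19, adjusted p 0.000130, edgeR). That call held without any single library but not in a fit of the 8 libraries compared (1.16, adjusted p 0.0865). With EGF the gap was smaller by 0.64 (SE 0.18, adjusted p 0.0395). For VIM the difference was 0.66 with EGF at 12 h (SE 0.13, adjusted p 0.00171), which held without any single library. The difference at 24 h came to 0.50 for EGF (SE 0.13, adjusted p 0.0137), and that for HRG to 0.52 (SE 0.13, adjusted p 0.0146). CDH1 gave -0.22 with EGF at 24 h (SE 0.06, adjusted p 0.0242) and CDH5 -2.82 with HRG at 24 h (SE 0.74, adjusted p 0.0243). The SNAI and ZEB genes, CDH3 and FN1 gave no call of this kind.

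The other calls at 24 h between the lines rested on single libraries, and in a fit of the compared libraries alone those of CDH1 with EGF (adjusted p 0.476) and of VIM and CDH5 with HRG (adjusted p 0.299 and 0.347) were lost. For CDH2 with EGF the difference was 0.46 to 0.70 (adjusted p 0.0582 to 0.284) without BT474 vehicle replicate 1 or 2, BT474 EGF replicate 2, BT474R vehicle replicate 2 or BT474R EGF replicate 1. For VIM it was 0.35 to 0.48 with EGF (adjusted p 0.0968 to 0.18) and 0.37 to 0.47 with HRG (adjusted p 0.134 to 0.149) without BT474 vehicle replicate 1, BT474 replicate 1 of that ligand or BT474R vehicle replicate 1. For CDH1 with EGF it was -0.21 to -0.14 (adjusted p 0.116 to 0.443) without BT474 vehicle replicate 2, BT474 EGF replicate 1, BT474R vehicle replicate 1 or BT474R EGF replicate 2. For CDH5 with HRG it was -2.01 without BT474 vehicle replicate 1 (adjusted p 0.163) and -2.88 to -2.65 without BT474 HRG replicate 2 or BT474R vehicle replicate 1 or 2 (adjusted p 0.0592 to 0.0652).

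HRG and EGF were also compared directly. In BT474, HRG against EGF gave 0, 0 and 3 calls of 9 at 1, 12 and 24 h, beside 0.139%, 2.17% and 0.768% of all genes, and in BT474R it gave 0, 1 and 0 beside 0.0494%, 1.42% and 5.18%. At 24 h in BT474, HRG left CDH2 lower than EGF by a log2 fold change of -0.46 (SE 0.10, adjusted p 0.0197, edgeR), VIM lower by -0.38 (SE 0.07, adjusted p 0.00445) and CDH5 higher by 1.39 (SE 0.26, adjusted p 0.00285). The CDH2 call was lost without HRG replicate 2 (-0.31, adjusted p 0.264) or EGF replicate 1 (-0.32, adjusted p 0.362), that of VIM without HRG replicate 1 (-0.31, adjusted p 0.0836), and that of CDH5 without EGF replicate 1 (1.08, adjusted p 0.121). In a fit of the compared libraries alone CDH2 (adjusted p 0.352) and VIM (adjusted p 0.209) were not called. In BT474R at 12 h VIM was lower with HRG than with EGF by -0.53 (SE 0.10, adjusted p 0.00569), a call lost without HRG replicate 1 (-0.50, adjusted p 0.123), HRG replicate 2 (-0.55, adjusted p 0.0510) or EGF replicate 1 (-0.44, adjusted p 0.218). The doses of EGF and HRG were not the same.

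Against T0, vehicle alone gave 2, 3 and 2 calls of 9 members in BT474 at 1, 12 and 24 h, beside 6.61%, 6.41% and 11.4% of all genes, and 0, 2 and 2 in BT474R beside 2.24%, 1.13% and 13.7%. Those of CDH2, CDH3, CDH5 and VIM are given above. The remaining one was CDH1 in BT474 at 12 h, with 1132 and 1111 CPM against 1052 and 1022 CPM (log2 fold change 0.11, SE 0.03, adjusted p 0.0392), which was lost without any one of the 4 libraries.

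Genes of the same processes were counted by list. After 12 h of HRG in BT474, 4 of 12 adherens junction genes rose and 2 fell, 8 of 26 epithelial junction and identity genes rose and 3 fell, and 8 of 25 tested mesenchymal structure and matrix genes rose and 4 fell. The median log2 fold changes were 0.09, 0.07 and 0.08, beside -0.02 over all genes, of which 25.8% were called. Of 18 other cadherin genes 9 were tested and 0 were called there. After 24 h of EGF in BT474R, 8 of 25 epithelial junction genes rose and 3 fell, and 7 of 24 matrix genes rose and 2 fell, with medians of 0.09 and 0.11 beside -0.01 over all genes, of which 17.3% were called. Epithelial and mesenchymal lists each held genes that rose and genes that fell.

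Epithelial genes rose and fell. The tight junction gene CLDN7 rose in BT474 at 24 h by a log2 fold change of 0.39 with EGF (adjusted p 1.22e-06, edgeR) and 0.37 with HRG (adjusted p 1.40e-06), and in BT474R by 0.49 with EGF (adjusted p 2.23e-06). JUP, the plakoglobin that links cadherins to filaments, rose in BT474 at 12 h by 0.16 with EGF (adjusted p 0.00111) and 0.22 with HRG (adjusted p 5.88e-06). EPCAM, an adhesion gene of luminal cells, rose in BT474 at 12 h by 0.22 (adjusted p 0.000295) and 0.28 (adjusted p 2.19e-06). PTPRF, a receptor phosphatase found at cell junctions, fell in 6 of the 12 ligand comparisons and rose in 0, by 0.28 on the log2 scale (adjusted p 7.26e-06) at 12 h of HRG in BT474. EHF, an epithelial ETS factor, fell in 8 and rose in 0, by 0.25 (adjusted p 1.76e-06) at 12 h of EGF in BT474 and 0.39 (adjusted p 4.16e-06) at 24 h of EGF in BT474R. ELF3, another epithelial ETS factor, rose in 9 and fell in 0, by 0.44 (adjusted p 0.00252) at 24 h of EGF in BT474R. The tight junction gene CLDN4 rose in 7 and fell in 0. TJP1, the tight junction scaffold ZO-1, fell in 5 and rose in 0, and each of these 5 calls was lost without some single library.

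The other transition factors named here moved in both directions. TWIST1, a basic helix-loop-helix factor of the transition, fell in BT474. Its log2 fold change was -0.75 (adjusted p 8.56e-07, edgeR) with EGF and -1.37 (adjusted p 7.56e-13) with HRG at 12 h, and -1.09 (adjusted p 9.21e-10) and -1.58 (adjusted p 1.21e-13) at 24 h. In BT474R it fell with EGF at 12 h by 1.08 on the log2 scale (adjusted p 0.00185), a call lost without vehicle replicate 2 (-0.82, adjusted p 0.0669) or EGF replicate 1 (-0.87, adjusted p 0.0691). It was lower in BT474R than in BT474 at T0 by a log2 difference of -2.52 (adjusted p 4.01e-17). YBX1, a cold shock domain protein, rose in BT474 at 12 h by 0.31 with EGF (adjusted p 3.32e-08) and 0.45 with HRG (adjusted p 1.32e-12). FOSL1, a subunit of AP-1, rose in BT474 at 1 h by 1.90 (adjusted p 6.36e-11) and 2.23 (adjusted p 4.81e-13). SOX9 fell in BT474 at 1 h by 0.44 with EGF (adjusted p 6.46e-07) and rose at 24 h by 0.39 (adjusted p 1.43e-06).

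Matrix and integrin genes rose and fell. ITGB1, an integrin chain, rose in 9 of the 12 ligand comparisons and fell in 0. ITGAV, another integrin chain, and COL1A1 each fell in 3 and rose in 0. TNC (tenascin C) rose at 24 h of HRG by 1.79 (adjusted p 6.03e-26) in BT474 and 0.68 (adjusted p 1.24e-06, 0.828 in a fit of those 4 libraries alone) in BT474R, and the difference of -1.14 between the lines was called (adjusted p 1.82e-11). COL5A2, a chain of type V collagen, rose at 24 h of EGF by 1.2 (adjusted p 2.19e-12) in BT474 and 1.53 (adjusted p 1.2e-11) in BT474R. ITGA5, the alpha chain of the fibronectin receptor, rose at 24 h of EGF by 2.00 (adjusted p 0.000262) and 2.09 (adjusted p 3.62e-07), while FN1 itself was not called.

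Among the TGF-beta pathway genes, 7 of 19 rose and 3 fell after 12 h of HRG in BT474, with a median of -0.05 beside -0.02 over all genes, of which 25.8% were called. BMP7, a ligand of the family, rose there by a log2 fold change of 1.04 (adjusted p 2.19e-22, edgeR) and by 0.85 (adjusted p 3.84e-19) with EGF. Among the 15 tested of 17 other mesenchymal transition factors 3 rose and 2 fell after 12 h of HRG in BT474.

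The genes whose group means were most like those of a member were named for description, over 10 group means of a line that share vehicle and T0 libraries. In BT474 the gene most like CDH2 was TRIM24 (Pearson r 0.959 of log2 CPM), that most like CDH5 was RBM47 (0.959), and that most like VIM was NBN (0.958), among 13817 genes compared. In BT474R they were PGR for CDH2 (0.974), STK24 for CDH5 (0.976) and NIPAL2 for VIM (0.982), among 13671 genes. For CDH1 in BT474R it was CHADL (0.958), and for CDH3 they were PALLD (0.99) in BT474 and FBXL2 (0.92) in BT474R.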

How the data were processed

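RNA-seq was analysed for 40 libraries of 2 cell lines, 2 per group. According to the study's methods and the labels, the authors extracted total RNA, made mRNA libraries, trimmed paired reads with Trim Galore 0.6.6, aligned them to GRCh38.p13 and counted reads per gene with featureCounts. The deposited values are these raw counts per gene and library. The annotation release and the use of strand and of multiply mapped reads are not given in the sources used here, so reads shared with an antisense or near-identical gene may be split between them.

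From the counts, CPM and tests were computed with edgeR 4.0.16 (R 4.3.3), with TMM scaling, the quasi-likelihood F test and p-values adjusted by Benjamini-Hochberg across each gene of a fit. A call is an adjusted p below 0.05. A gene entered a fit when 50% or more of its libraries held 1 count or more. The fits held the 20 libraries of BT474 (25146 genes), those of BT474R (24287) or all 40 (24641, for contrasts between lines). Depth limits the counts of low genes: 3 counts were taken as the limit per library. The fit was tested on simulated data. Alternatives were DESeq2 1.42.0, its size factors, other filters, other fits, a replicate block and leaving out each replicate.

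The members and lists were chosen with earlier results of these data known. Named besides the members are, from each list, at most 4 genes, those called in the most of the 12 ligand comparisons (ties by mean CPM), or for other cell types the 2 of highest mean CPM, and the genes most like a member, of which a result is not reported here; PECAM1, KDR, ROBO4, PDGFRA, PTPRC and ITGAV were named after their values were seen. Start sequences came from RefSeq (GRCh38.p14), exon lengths from GENCODE 44.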

Additional observations from a re-analysis of the deposited data

Results flagged for a closer look

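For 7 combinations of member, ligand and time, the effect of a ligand differed between BT474R and BT474 in a test of the difference itself (edgeR, Benjamini-Hochberg adjusted p below 0.05). Positive values mean a higher ligand effect in BT474R on the log2 scale. VIM differed with EGF at 12 h by 0.66 (adjusted p 0.00171), with EGF at 24 h by 0.50 (adjusted p 0.0137) and with HRG at 24 h by 0.52 (adjusted p 0.0146). CDH2 differed at 24 h by 0.64 with EGF (adjusted p 0.0395) and by 1.14 with HRG (adjusted p 0.000130). CDH1 differed with EGF at 24 h by -0.22 (adjusted p 0.0242), and CDH5 with HRG at 24 h by -2.82 (adjusted p 0.0243).

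The calls of VIM with EGF at 12 h and of CDH2 with HRG at 24 h were kept without each of the 8 libraries compared. In a fit of those 8 libraries alone that of VIM was kept and that of CDH2 was not (adjusted p 0.0865). The other 5 were lost without 3 to 5 of the 8 libraries, those named beside each value in the report. For CDH5 the BT474 vehicle libraries at 24 h held 0 and 6 reads, and without the one with 6 reads the difference was -7.49, a fitted value with no BT474 vehicle read left.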

How the results depend on the processing

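Of the 71 called comparisons of members, 50 were kept in every other fit; over 600 values from these fits 568 stayed called in the same direction, 32 were no longer called and 0 reversed. Leaving out 1 library gave 312 values, of which 236 stayed called and 76 did not; where this left 1 library in a group, that library was assumed to vary like the other groups. Counts of member calls moved by more than 1.5 times in these cases. With both lines in 1 fit, HRG against EGF gave 1 call in place of 3 in BT474 and 2 in place of 1 in BT474R. Without a filter on low counts, EGF in BT474R gave 8 in place of 5, HRG in BT474R 4 in place of 2, and HRG against EGF in BT474R 3 in place of 1, which was 2 in DESeq2 and 2 with its size factors. With only the libraries compared, HRG gave 0 calls in BT474R in place of 2, and 0 in place of 3 for its effect between the lines. The cause was not tested.

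Without single libraries the counts ranged from 4 to 5 (EGF) and 6 to 10 (HRG) in BT474, 4 to 7 and 1 to 5 in BT474R, 1 to 3 and 0 to 3 (HRG against EGF, BT474 and BT474R), 3 to 8 and 2 to 4 (vehicle against T0), 6 to 7 and 19 to 22 (lines at T0 and with vehicle), and 2 to 4 and 1 to 3 (EGF and HRG effects between lines).

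Replicate numbers were not taken as pairs: of 24 pairs of groups within a line, correlations of deviations ran from -0.0939 to 0.384, with 5 above 0.1, all 5 between groups at 24 h. A replicate block moved no count by more than 1.5 times; a replicate block within each time point gave 4 calls of HRG in BT474R and 2 of HRG against EGF there, and the difference of VIM between the lines at T0 was then -0.33 (adjusted p 0.0591). No row repeated a member's name with a number, so summing such rows gave no value. Adding antisense rows to the members was chosen after seeing the data. The sum of ZEB1 and its antisense row differed between the lines with vehicle at 24 h by -0.41 (adjusted p 0.206, edgeR). That is a value of the sum and not of ZEB1, which was at the limit in BT474R there. Depth limits SNAI1, SNAI2, ZEB1, ZEB2 and, in BT474, CDH5: at such counts a comparison without a call does not show that a change is absent.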
